A study of Mus musculus with 4 samples.

Results

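The neurotrophins and their receptors were followed in the anterior and posterior lobes of the developing mouse cerebellum. The genes were Bdnf and Ntf3 for the ligands, Ntrk2, Ntrk3 and Ngfr for the receptors, and Sort1 for the co-receptor, listed on the array as BDNF, NTF3, NTRK2, NTRK3, NGFR and SORT1. These are 6 of the 30854 gene symbols on the chip, and all probes that carry them were taken, 21 of 45281. RNA came from Swiss mice at postnatal day (PN) 7, untreated and with no genetic change stated. Illumina bead arrays of the whole mouse genome (MouseWG-6 v2.0) were used, 2 for the anterior lobes and 2 for the posterior lobes. The question asked of these genes is whether their transcripts differ between the lobes. The labels do not say how many animals stand behind a sample, so the p-values measure the spread between these samples, which may be technical.

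Neurotrophins are secreted growth factors. They are made as proproteins and cut to the mature form by furin and related convertases. Mature brain-derived neurotrophic factor (BDNF) binds the kinase TrkB (gene Ntrk2), and neurotrophin-3 (gene Ntf3) binds TrkC (gene Ntrk3). The p75 receptor (gene Ngfr) binds both, and together with sortilin (gene Sort1) it binds the uncut proproteins. In the developing cerebellum granule neurons respond to BDNF through TrkB as they leave the external granule layer (EGL), neurotrophin-3 is made in the granule lineage, and p75 is found on EGL progenitors and Purkinje cells.

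On this chip the signal of a probe is the mean brightness of its beads. A detection p-value tells how large a part of the negative controls reached the same brightness. The median intensity was between 110.2 and 129.6 per array, and 46.5% to 47.6% of the probes were detected at a p under 0.05. Signals were quantile normalized and put on the log2 scale. The 21726 probes detected on at least 2 arrays were tested with limma, posterior minus anterior, with Benjamini-Hochberg adjustment over all of them. The fit was also read at the study criterion, a difference over 1.2-fold at an unadjusted p under 0.05. With 2 arrays against 2, an exact two-sided permutation test cannot go below p = 0.333. Tlx3, the homeobox gene whose posterior restriction the study is about, had intensities of 73.1 and 57.9 on the anterior and 449.3 and 334.6 on the posterior arrays, so the lobe labels hold for it. Of the cell type marker lists the arrays differed most in that of choroid plexus, whose summed signal was 1328 and 11370 on the anterior and 5663 and 7664 on the posterior arrays, lowest on that of anterior replicate 1.

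Of the 21 probes, 11 were detected on all 4 arrays and tested, and they stand for all 6 genes. Ntf3 was the member that passed the 1.2-fold criterion, higher in the posterior lobes. Of all tested probes 3.30% passed it as higher and 8.29% in either direction. No member passed an adjusted p of 0.05 by limma, which 0.106% of all tested probes did. At an unadjusted p under 0.05 the count was 1 member, and the methods' t-test gave 0 and 1 at the same thresholds. No share of all tested probes was taken at the unadjusted p alone or by the methods' test. The counts just given thus have no background to be read against. Over the 11 probes 5 had the higher mean in the posterior and 6 in the anterior lobes. The median absolute log2 difference of the 11 probes was 0.11 against 0.10 over all tested probes. For 5 of the 11 the arrays of the lobes did not overlap, which held for 42.6% of all tested probes, so the members as a group are close to that background.

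**Figure D1:**
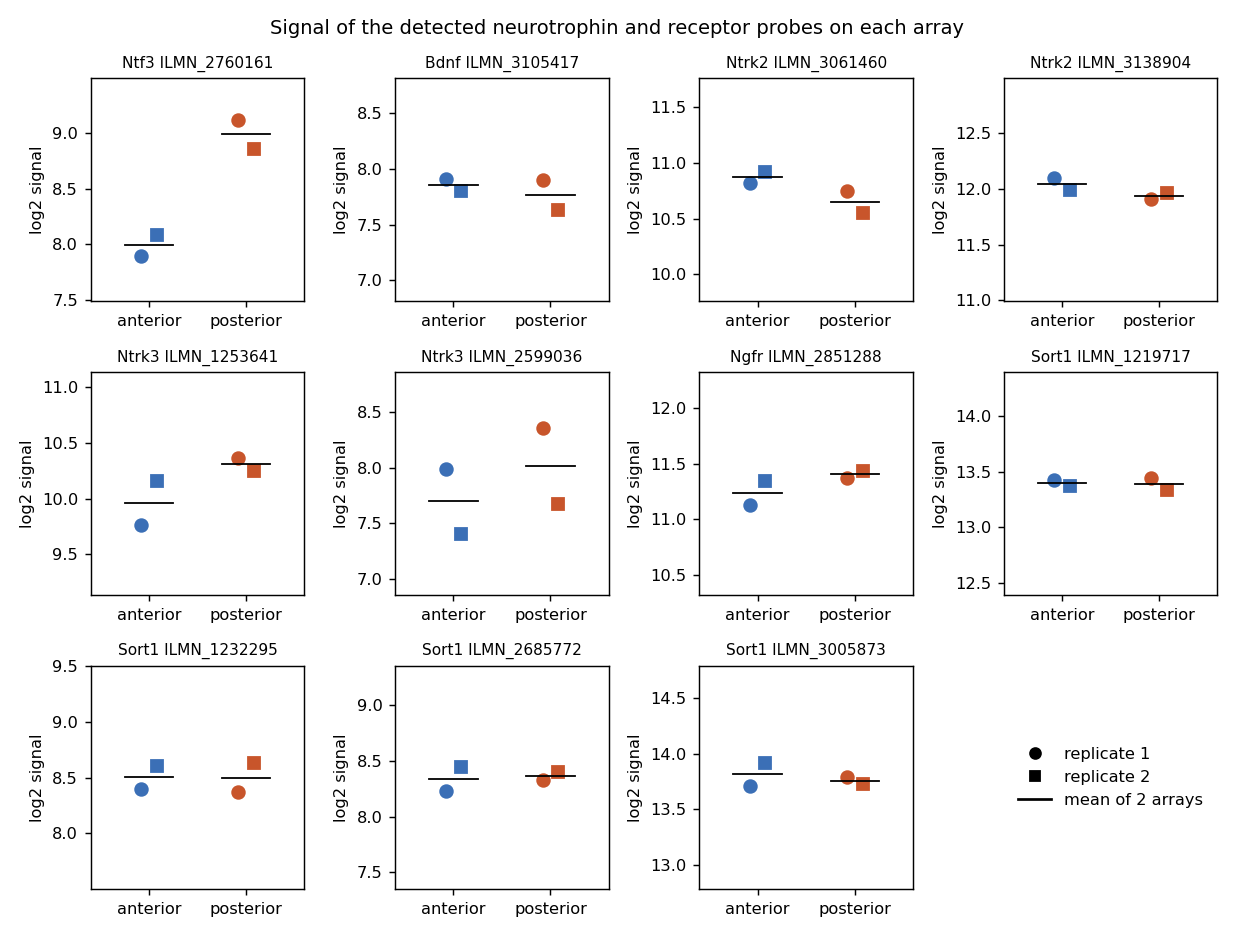
Normalized log2 signal of the 11 tested probes on each array, one panel per probe with the same span of 2 log2 units on every vertical axis. Circles are replicate 1, squares replicate 2 and lines the mean of a lobe. For Ntf3 both posterior arrays, at 9.12 and 8.86, lie above both anterior arrays, at 7.90 and 8.08.

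Ntf3 encodes neurotrophin-3. Its probe, ILMN_2760161, had an intensity of 261.5 and 247.2 on the anterior arrays and 541.5 and 468.0 on the posterior arrays. Each value is the mean of 33 to 40 beads, with a standard error over the beads of 5.07% to 5.83% of the signal. Both posterior values were above both anterior values. The bead error covers the measurement of an array and not the variation between samples. After normalization the anterior mean was 7.99 ± 0.13 and the posterior mean 8.99 ± 0.18 on the log2 scale (SD over n = 2 arrays per lobe). The log2 difference was 1.00 (standard error 0.15, 95% interval 0.64 to 1.36), so the posterior signal was 1.99-fold the anterior one. Within replicate 1 the difference was 1.22 and within replicate 2 it was 0.78. The unadjusted p was 0.00052 and the adjusted p 0.11 by limma. With the 21726 tested probes ordered from the highest to the lowest signed difference, it was number 104. The log2 difference was 0.91 without anterior replicate 1 and 1.08 without anterior replicate 2. Without posterior replicate 1 it was 0.87 and without posterior replicate 2 it was 1.12.

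The bases that precede the annotated start sites of Ntf3 in RefSeq (build GRCm38.p6) are shown because Ntf3 is the member whose signal passed the criterion. They are written 5′ to 3′ on the minus strand, with E-box letters (CANNTG, which reads the same class on both strands) in capitals. For the first start site the bases inside the annotated gene were left off.
Ntf3 first start site, chr6:126166773-126166994: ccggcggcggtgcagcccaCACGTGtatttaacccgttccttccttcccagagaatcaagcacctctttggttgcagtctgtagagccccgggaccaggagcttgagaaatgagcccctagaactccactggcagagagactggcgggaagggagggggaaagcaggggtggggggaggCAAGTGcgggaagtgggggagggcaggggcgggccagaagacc
Ntf3 second start site, chr6:126164961-126165210: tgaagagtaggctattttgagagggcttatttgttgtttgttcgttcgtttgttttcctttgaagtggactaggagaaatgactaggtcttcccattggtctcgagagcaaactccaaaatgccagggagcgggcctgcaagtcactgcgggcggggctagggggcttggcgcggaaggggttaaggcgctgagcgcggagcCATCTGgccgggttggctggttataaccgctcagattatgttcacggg
The first stretch holds 2 E-boxes and the second 1. An E-box is present in 66.2% of the 250-base stretches before all 32851 annotated start sites. Each of the 250-base stretches of Ntf3 also holds 1 GC box (GGGCGG, either strand), as 32.7% of all do. The homeodomain cores TAATTA and TAATTG, searched on both strands, were found in neither, and they are present in 4.84% and 7.17% of all. These letters are a description of the stretches and say nothing of which factors bind there.

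**Figure D2:**
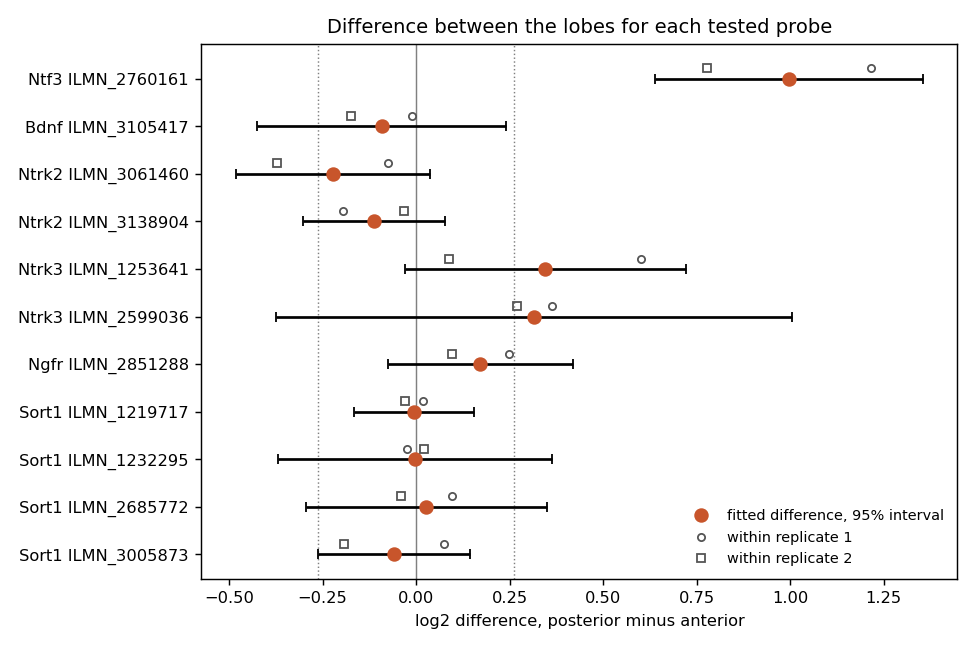
Log2 difference, posterior minus anterior, for each tested probe. Filled circles are the fitted differences with 95% intervals by limma, open symbols the differences within each replicate number, and dotted lines 1.2-fold. The interval of Ntf3, 0.64 to 1.36, lies wholly above 0, and the other 10 intervals include 0.

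Markers of some other cells differed between the same arrays. Of all tested genes, 4.10% had a probe past the 1.2-fold criterion as higher in the posterior lobes and 6.05% as lower. With marker lists this short, 1 gene past the criterion does not set a list apart. Of 10 genes of meninges and vessels, all detected, 5 passed the 1.2-fold criterion, all higher in the posterior lobes. Their summed signal was 22480 and 25629 on the anterior and 30510 and 33897 on the posterior arrays. Of 12 oligodendrocyte genes 11 were tested, without Olig2, and 10 passed, all lower, with sums of 118795 and 116926 on the anterior and 82689 and 77256 on the posterior arrays. Granule neuron genes gave sums of 44301 and 41484 on the anterior and 44787 and 41234 on the posterior arrays, and 1 of 8 tested genes passed, higher in the posterior lobes. Purkinje cell genes gave sums of 82566 and 85567 on the anterior and 76815 and 77142 on the posterior arrays, with a median log2 difference of -0.11. Of the 6 tested ones 1 passed, higher in the posterior lobes, while Calb1, Pcp4 and Car8 were not detected. Genes of unipolar brush cells gave sums of 10882 and 11412 on the anterior and 14241 and 13576 on the posterior arrays, and 1 of 4 passed, higher in the posterior lobes. The part of these cells in the signal of Ntf3 and of the other members was not tested. In whole lobes, more cells that make a transcript and more transcript per cell cannot be told apart.

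The probes nearest to that of Ntf3 in their course over the 4 arrays were sought among 19914 probes detected on all of them, by the root mean square difference of the centred log2 signals. The nearest was Ap2b1, a subunit of the clathrin adaptor AP2, at 0.0817, with log2 signals of 10.33 and 10.39 on the anterior and 11.38 and 11.32 on the posterior arrays. The others were 8030451F13Rik at 0.111 and Lyz, a lysozyme, at 0.113. Their log2 differences were 0.98, 0.89 and 0.92. With 4 arrays this is a description of likeness.

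Bdnf, the ligand of TrkB, was measured by 6 probes, of which ILMN_3105417 was detected. Its intensity was 263.5 and 205.0 on the anterior arrays and 236.5 and 200.2 on the posterior arrays. The lobes overlapped, and the arrays of replicate 1 were the brighter ones in both. The anterior mean was 7.86 ± 0.075 and the posterior mean 7.77 ± 0.19 on the log2 scale (SD over n = 2 arrays per lobe). The log2 difference was -0.09 (standard error 0.14, adjusted p = 0.85 by limma), with a 95% interval of -0.43 to 0.24. A difference the size of that of Ntf3 lies outside this interval. The sign turned without posterior replicate 2, to 0.043. The other 5 Bdnf probes had intensities between 72.0 and 93.2 and detection p-values between 0.239 and 0.465 on the 4 arrays, so they give no fold.

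Ntrk2 encodes TrkB, which exists as a full kinase and as shorter forms that lack the kinase. The table pairs each probe with the gene symbol alone, so the form each probe matches is not known here. ILMN_3061460 had an intensity of 1948.1 and 1808.8 on the anterior and 1666.9 and 1521.0 on the posterior arrays, and both posterior arrays were lower. The anterior mean was 10.87 ± 0.069 and the posterior mean 10.65 ± 0.14 on the log2 scale (SD over n = 2 arrays per lobe). The log2 difference was -0.22 (standard error 0.11, 95% interval -0.48 to 0.04, adjusted p = 0.55 by limma). ILMN_3138904 had an intensity of 4730.4 and 3782.9 on the anterior and 3737.3 and 4080.2 on the posterior arrays. Its deposited intensities overlapped between the lobes, while after normalization both posterior arrays were lower, with a log2 difference of -0.11 (95% interval -0.30 to 0.08). Both probes thus had the lower posterior mean, by less than the 1.2-fold criterion and with intervals that include 0. With an array left out the difference of ILMN_3061460 lay between -0.32 (without posterior replicate 1) and -0.12 (without posterior replicate 2), and that of ILMN_3138904 between -0.17 (without anterior replicate 2) and -0.056 (without anterior replicate 1). ILMN_2553897 was detected on 1 array, that of anterior replicate 2, with a detection p-value of 0.0449, and ILMN_2705460 on none.

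Ntrk3 encodes TrkC, the receptor of neurotrophin-3, and was measured by 2 detected probes. ILMN_1253641 had an intensity of 937.6 and 1073.9 on the anterior and 1282.2 and 1233.1 on the posterior arrays. Both posterior arrays were brighter. The anterior mean was 9.96 ± 0.28 and the posterior mean 10.31 ± 0.081 on the log2 scale (SD over n = 2 arrays per lobe). The log2 difference of 0.35 (standard error 0.15, 95% interval -0.03 to 0.72) was next in size to that of Ntf3 among the members. Its unadjusted p was 0.066 and its adjusted p 0.53 by limma. The difference was 0.60 within replicate 1 and 0.09 within replicate 2. Without anterior replicate 2 the log2 difference was 0.54, and without anterior replicate 1 it was 0.15.

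The second probe of Ntrk3, ILMN_2599036, had an intensity of 277.8 and 153.7 on the anterior and 322.7 and 206.0 on the posterior arrays. The lobes overlapped, and the arrays of replicate 1 were brighter than those of replicate 2 in both lobes. The anterior mean was 7.70 ± 0.41 and the posterior mean 8.01 ± 0.48 on the log2 scale (SD over n = 2 arrays per lobe), the widest spread among the members. The log2 difference was 0.32 (standard error 0.28, 95% interval -0.37 to 1.01, adjusted p = 0.73 by limma), with 0.36 within replicate 1 and 0.27 within replicate 2. The interval includes both 0 and a difference the size of that of Ntf3. The difference was 0.60 without anterior replicate 1 and 0.66 without posterior replicate 2, but 0.024 without anterior replicate 2 and -0.020 without posterior replicate 1. ILMN_2632337, the third probe, was not detected, with intensities between 70.3 and 98.3.

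Ngfr encodes the p75 receptor. Its detected probe, ILMN_2851288, had an intensity of 2400.2 and 2423.3 on the anterior and 2585.8 and 2820.1 on the posterior arrays. Both posterior arrays were brighter. The anterior mean was 11.23 ± 0.15 and the posterior mean 11.41 ± 0.045 on the log2 scale (SD over n = 2 arrays per lobe). The log2 difference was 0.17 (standard error 0.10, 95% interval -0.08 to 0.42, adjusted p = 0.61 by limma). It was 0.061 without anterior replicate 1 and 0.28 without anterior replicate 2. The other 2 probes of Ngfr were at background, with intensities between 56.6 and 71.3 and detection p-values of 0.532 or more.

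Sort1 encodes sortilin, a sorting receptor of the VPS10 family, and was detected with all 4 of its probes. The probe ILMN_3005873 had an intensity of 14369.5 and 14278.1 on the anterior and 13969.4 and 13615.9 on the posterior arrays, and ILMN_1219717 had 11810.1 and 9727.0 against 10855.6 and 10577.1. After normalization the lobes overlapped for both, with log2 differences of -0.06 (95% interval -0.26 to 0.14) and -0.01 (95% interval -0.17 to 0.15). The dimmer probes ILMN_1232295 and ILMN_2685772 had intensities from 317.0 to 398.9, with the lobes overlapping as well. Their log2 differences were -0.0022 (95% interval -0.37 to 0.36) and 0.03 (95% interval -0.29 to 0.35). All 4 intervals lie within 0.37 of 0 on the log2 scale, and the signs of these small differences turn with the normalization or with an array left out. The interval of ILMN_1219717 was the narrowest among the 11 tested probes of the members.

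**Figure D3:**
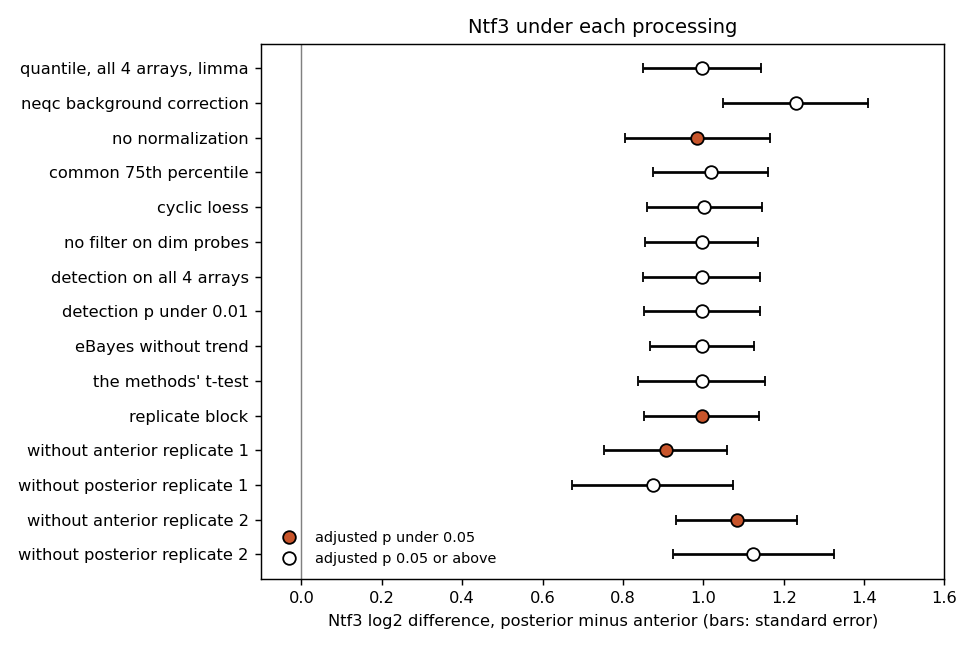
Log2 difference of Ntf3, posterior minus anterior, under each processing, with standard errors as bars. Filled circles have an adjusted p under 0.05 and open circles 0.05 or above. The difference stays between 0.87 and 1.23, while the adjusted p lies on both sides of the threshold.

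Further genes of the pathway were taken from 6 lists by role, with 113 tested genes in all. Of these, 8 had a probe past the 1.2-fold criterion that was higher in the posterior lobes and 11 a lower one, against 4.10% and 6.05% of all 15615 tested genes. In either direction this was 16.8% of the 113, against 10.1% of all. By list the share was 7.14% for processing and secretion, 9.38% for Trk adaptors and kinases and 16.7% for other receptors. It was 18.2% for p75 signalling, 23.5% for transcripts that respond to BDNF and 31.3% for regulators of Bdnf transcription. A gene with more tested probes has more ways to pass. None passed the adjusted p by limma or by the methods' t-test, and at an unadjusted p under 0.05 the counts were 23 genes by limma and 14 by that test. The share of all tested genes at that last threshold was not taken, so these counts have no background to be read against. The median log2 difference over the 113 genes, with the brightest probe of each, was -0.02 against 0.01 over all tested genes. The number of list genes past the criterion, 19 with all 4 arrays, moved both up and down with an array left out. In those fits the share of all tested genes was not taken, so the moves have no background to be read against.

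Among the other receptors and co-receptors 2 of 12 tested genes passed the criterion, both lower in the posterior lobes. Sorcs2, a sortilin relative that pairs with p75 for proneurotrophins, had a log2 difference of -0.49 (standard error 0.11, adjusted p = 0.28 by limma). Sorl1, another sorting receptor of that family, had -0.39 (standard error 0.11). The brightest genes of the list were Maged1 and Ngfrap1, whose products bind p75, at -0.06 and -0.05. The list median was -0.10. In the same samples Sort1 had differences between -0.06 and 0.03, and whether the relatives differ from Sort1 was not tested.

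Among 14 tested genes of proneurotrophin processing and secretion, 1 passed. Cadps2, which serves the release of dense-core vesicles and of the neurotrophins they carry, had a log2 difference of -0.54 for ILMN_2590164 and -0.17 for its brighter probe ILMN_2998313, which did not pass. Cpe, a carboxypeptidase that sorts proBDNF, was at 0.02. Of 32 tested Trk adaptors and kinases 1 passed as higher and 2 as lower. Pik3r1, a regulatory subunit of PI3 kinase, had 0.38 and 0.37 on its brighter probes and -0.18 on a dim one that did not pass. The adaptor Sh2b2 had -0.34 on a probe detected on the anterior arrays alone. Its detection p-values were 0.029 and 0.027 there and 0.160 and 0.078 on the posterior arrays. It entered the test through the lobe where it is brighter, and its posterior signal was at background. The kinase Rps6ka1 had -0.33 on one probe and -0.10 on a brighter one that did not pass. Ptpn11 and Crk, the brightest genes of that list, were at -0.01 and 0.04 on their brightest probes. The dimmer probes of Crk were at -0.32 and -0.27 and did not pass, and those of Ptpn11 were both at -0.04. The medians of these lists were -0.04 and -0.01.

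Of 22 tested genes of p75 signalling 2 passed as higher and 2 as lower, with a list median of -0.01. Trp53, a transcription factor of the stress response, had a log2 difference of 0.75 for ILMN_2466845. Mapk10, a JNK kinase, had -0.63 and the adaptor Traf6 had -0.30. Each of these genes has another tested probe with a difference closer to 0. For Trp53 it was 0.05 on a dim probe, with a mean log2 signal of 7.42 against 10.89 for the probe that passed. For Mapk10 it was -0.18 on a dimmer probe. For Traf6 the brightest probe was at 0.0017. Mapk9 and Cycs, the brightest, were at -0.08 and -0.07.

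Of 17 tested transcripts known to respond to BDNF 2 passed as higher and 2 as lower, and the list median was 0.11. Dusp6, a phosphatase induced by ERK signalling, had a log2 difference of 0.46 on its brightest probe, which passed. Its dimmer probes, at 0.51 and 0.46, did not pass. The deposited intensities of the passing probe were 4653.4 and 2695.5 on the anterior and 4620.7 and 5124.5 on the posterior arrays. They overlapped between the lobes, while after normalization both posterior arrays were higher. Dusp4 had 0.41 on the probe that passed, 0.22 on its brightest and 0.14 on its dimmest. Nptx1, a neuronal pentraxin, had -0.65 and the immediate early gene Egr1 had -0.29. Syt4 and Dusp1 were the brightest at -0.14 and 0.11. The transcripts of this list therefore lay on both sides of 0.

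Of 16 tested regulators of Bdnf transcription 3 passed as higher and 2 as lower, with a list median of 0.03. The share in either direction was 31.3%, against 7.14% to 23.5% in the other lists and 10.1% of all tested genes. Usf1, an E-box factor, had a log2 difference of 1.35 (standard error 0.30, adjusted p = 0.26 by limma) for ILMN_1254639. Its other tested probe had 0.96 and was dim, with a mean log2 signal of 7.18. The coactivator Ep300 had 0.66 on one probe and 0.30 on a brighter one. Its relative Crebbp had 0.65, 0.59 and 0.52 on its 3 tested probes. The last of these did not pass and was dim, with a mean log2 signal of 6.88. On which arrays these dim probes of Usf1 and Crebbp were detected is not given here. The calcium-dependent kinases Camk2d and Camk2b had -0.47 and -0.29, and 6 further tested probes of Camk2d lay between -0.22 and 0.01. Hdac2, a bright member of the list, was at 0.04. The detected Bdnf probe itself, given above, had a difference of -0.09.

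**Figure D4:**
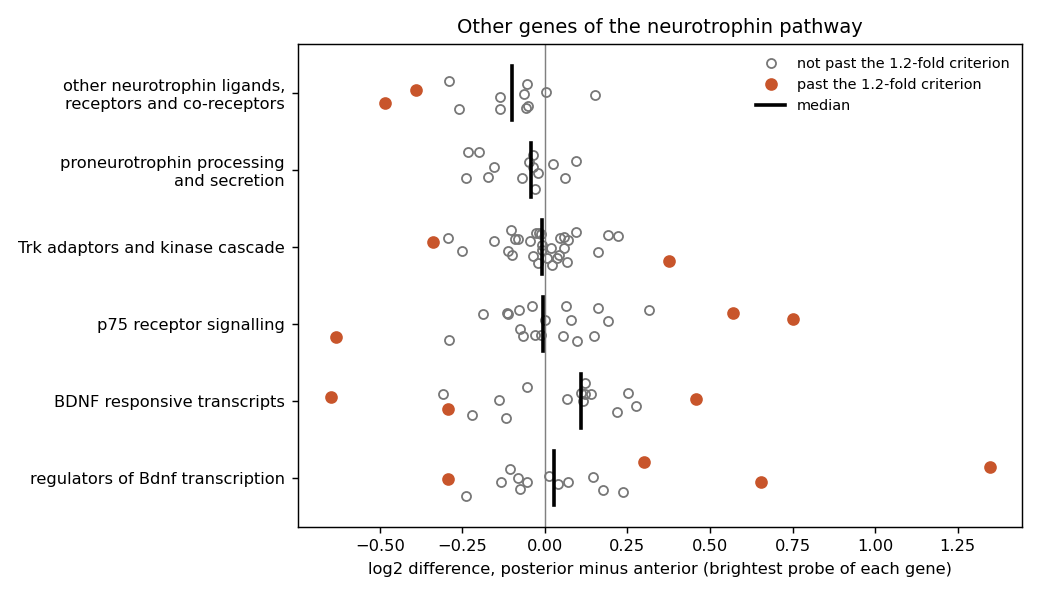
Log2 difference, posterior minus anterior, of the tested genes in the 6 pathway lists, each gene by its brightest probe. Filled points are genes whose brightest probe passes the 1.2-fold criterion. A gene that passes on a dimmer probe alone is counted in the text but not filled here. Black bars are the list medians, which lie between -0.10 and 0.11.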

How the data were processed

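The authors deposited, for 45281 probes on each of 4 arrays, the mean intensity over the beads, its SD, the bead number and a detection score, a fraction equal to 1 minus the detection p-value. Per the file headers, Illumina GenomeStudio 1.9.0 wrote them with normalization off. Another 16 columns (minima, maxima, array numbers and array SDs) were not used. Columns were assigned to samples by the sample numbers in the labels.

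Intensities were quantile normalized, floored at 1 and log2 transformed, following the floor and log base of the methods, in R 4.3.3. All probes detected (p under 0.05) on 2 or more arrays were fitted with limma 3.58.1 (eBayes with intensity trend), posterior minus anterior, with Benjamini-Hochberg adjustment over 21726 probes. The methods' t-test was run on the same values. Bead standard errors are the bead SD over the square root of the bead number and cover technical error only. The number of arrays limits the precision. In data simulated for this comparison over 21726 probes, limma called 151 of 200 probes changed by 2-fold and 38 of 200 changed by 1.5-fold. Of the measured probes tested, 0.69% had a larger absolute difference than Ntf3, at 1.99-fold, and 0.106% passed the adjusted p by limma. The SD of replicate 1 minus replicate 2 over probes was 0.32 for anterior and 0.20 for posterior arrays. The simulation gave each probe the same spread in both lobes and drew the arrays independently, so it does not hold this unequal spread. The simulated counts thus do not tell what share of such changes would be called on the measured arrays.

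Named list genes are, per list, up to 5 past the 1.2-fold criterion and the 2 brightest, and Tlx3 was named as a check of the labels. 1 gene of the family is not reported here, and 1 gene of the lists is counted but not named. The members and lists were chosen with earlier results of these data known. Of the cell type marker lists, those of astroglia, granule progenitors, interneurons and microglia had medians between -0.06 and 0.08 on the log2 scale. The choroid plexus list, with 3 tested genes, had a median of -0.89, with 1 gene past the criterion as higher and 1 as lower. Its summed signals, given above, overlapped between the lobes. All 6 symbols matched the RefSeq table of GRCm38.p6, which served for names. Promoter sequences are from RefSeq. Alternatives were neqc background correction with an offset of 16, no normalization, a common 75th percentile, cyclic loess, other detection filters, no trend, the t-test, a replicate block and leaving out each array.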

Additional observations from a re-analysis of the deposited data

How the results depend on the processing

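Of 154 values of the 11 member probes under 14 alternatives, 138 kept their direction and their side of the adjusted p. Ntf3 was higher in the posterior lobes in all 14, with log2 differences from 0.87 to 1.23 and adjusted p-values from 0.0031 to 0.80 by limma and the methods' t-test (0.58). The number of members past the adjusted p, 0 by limma with quantile normalization, was 1 without normalization (Ntf3, adjusted p = 0.020) and between 0 and 1 with an array left out. The number past the 1.2-fold criterion, 1, was between 1 and 3 with an array left out. In those fits the lobe with 1 array left takes its spread from the lobe with 2. The number of pathway genes past the criterion, 19, was 4 with the methods' t-test and between 8 and 38 with an array left out. The cause of these moves was not tested.

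Signs turned for probes of Bdnf, Ntrk3 and Sort1. Sort1 ILMN_1219717 was 0.032 and ILMN_1232295 was 0.023 at a common 75th percentile, and the latter 0.0073 with cyclic loess. With an array left out the log2 difference of Bdnf lay between -0.23 and 0.043, that of Ntrk3 ILMN_2599036 between -0.020 and 0.66, and those of Sort1 between -0.061 and 0.043 (ILMN_1219717), -0.13 and 0.13 (ILMN_1232295), -0.079 and 0.13 (ILMN_2685772) and -0.17 and 0.045 (ILMN_3005873).

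With the replicate number as a block, 1 member passed the adjusted p (Ntf3, adjusted p = 0.0039 by limma) and 3 the 1.2-fold criterion, the added ones being both probes of Ntrk3. The number of pathway genes past the criterion was 27 rather than 19 in that fit. The shares of all tested probes and genes past these thresholds with the block were not taken. These counts therefore have no background to be read against. The replicate 1 minus replicate 2 differences of the anterior and the posterior lobes had r = 0.46 across probes, which are not independent. The labels do not say that a replicate number marks shared animals, so whether the numbers pair the samples is not known, and the block was kept as an alternative.

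Of the Bdnf probes 5 were at background, which leaves no difference to measure there.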
